A study of Mus musculus with 9 samples.

Results

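Levels of 8 cholesterol genes were followed in myeloid cells of mouse liver after an acetaminophen (APAP) overdose. The genes were Hmgcs1, Fdps, Idi1, Fdft1, Sqle, Lss, Cyp51 and Insig1, chosen by name as targets of the transcription factor SREBP2. They were found by matching gene IDs to mouse symbols and are 8 of the 45777 genes in the tables. All 8 reached 1 TPM (transcripts per 1000000) in 3 or more of the 9 samples, as did 13820 genes in all. Of the 8 genes, 7 encode enzymes of the synthesis pathway and Insig1 encodes a sterol sensor. No gene of cholesterol uptake is among them, so genes such as Scarb1 are given separately.

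Cells build cholesterol from acetyl-CoA through mevalonate, isoprenoid diphosphates, squalene and lanosterol. When sterols run low in the endoplasmic reticulum, the escort protein SCAP carries SREBP2 to the Golgi, where it is cleaved, and the released fragment switches on the genes of sterol synthesis and uptake. When sterols are ample, INSIG proteins hold SCAP and SREBP2 back. In macrophages, cholesterol also arrives with engulfed cells and lipoproteins and is exported through pathways under the oxysterol receptors LXR.

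All 9 samples are RNA of CD11b+ cells isolated from liver, CD11b being an integrin subunit on the surface of myeloid cells such as monocytes, macrophages and neutrophils. Every animal had received APAP into the abdomen, and the livers were taken 48 hours later. The PBS group had buffer alone, the HEK-EV group had extracellular vesicles (SIRP-EVs) made by HEK cells, a human embryonic kidney line, and the MSC-EV group had SIRP-EVs made by MSC (mesenchymal stem or stromal cells), with 3 samples in each group and vesicles given into a vein at 8 hours. The labels do not spell out SIRP, which is the usual short name of the signal regulatory protein family. Strain, sex, age, vesicle dose and the number of animals per sample are not given in the sources used here, and samples without APAP or with vesicles lacking SIRP were not analysed here. Since the labels do not say that samples came from separate animals, p-values measure only the spread between these samples. In RNA of a mixed population, fewer cells of a type and less RNA per cell cannot be told apart.

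The region just upstream of a gene is where SREBP2 and its partners bind, so the 250 bases before the start of Hmgcs1, Idi1 and Insig1 are shown, the first being the member closest to a call against PBS, the second the steadiest pathway enzyme and the third the sensor. They are RefSeq sequences of GRCm38.p6, read 5′ to 3′ on the gene's strand, which is the plus strand for all 3. Capitals mark every match to TCACNCCAC (a sterol regulatory element), CCAAT (the box of the factor NF-Y) or GGGCGG (the box of Sp1), on either strand. No matches of different motifs overlapped.
Hmgcs1, chr13:119690101-119690350: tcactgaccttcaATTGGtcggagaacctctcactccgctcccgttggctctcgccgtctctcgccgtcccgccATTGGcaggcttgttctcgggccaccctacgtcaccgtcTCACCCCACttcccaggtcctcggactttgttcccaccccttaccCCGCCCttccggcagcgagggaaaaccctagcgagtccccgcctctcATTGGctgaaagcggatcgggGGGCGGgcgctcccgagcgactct
Idi1, chr13:8885356-8885605: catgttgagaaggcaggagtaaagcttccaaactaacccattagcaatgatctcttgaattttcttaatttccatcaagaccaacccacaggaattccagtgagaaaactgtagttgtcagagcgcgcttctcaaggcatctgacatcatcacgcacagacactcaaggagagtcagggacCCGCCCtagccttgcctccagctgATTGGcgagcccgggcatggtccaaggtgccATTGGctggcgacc
Insig1, chr5:28071162-28071411: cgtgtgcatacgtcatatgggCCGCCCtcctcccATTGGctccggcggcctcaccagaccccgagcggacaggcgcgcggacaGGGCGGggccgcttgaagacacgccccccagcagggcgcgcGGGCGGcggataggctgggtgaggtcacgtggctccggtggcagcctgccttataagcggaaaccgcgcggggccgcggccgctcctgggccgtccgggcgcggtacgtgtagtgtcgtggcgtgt
A match to TCACNCCAC was present in 1 of the 5 members with a promoter entry (Hmgcs1, Idi1, Insig1, Lss and Cyp51), against 1.05% of 32851 mouse promoters of the same length. Other forms of sterol regulatory element were not searched, so a promoter without this match may still hold one. That match, on the plus strand of Hmgcs1, runs from 137 to 129 bases before the start. CCAAT was present in 5 of 5, against 33.8% of all promoters, and GGGCGG in 5 of 5, against 32.7%. A match describes the letters in this window and is not a binding site. Fdps, Fdft1 and Sqle were not searched.

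The genes fell into 3 tiers of abundance. Fdps averaged 21.7 ± 2.20 TPM over the 9 samples, Hmgcs1 21.4 ± 1.56 and Insig1 18.6 ± 0.912 (SD). Idi1 followed at 6.12 ± 0.308, Fdft1 at 5.86 ± 0.864 and Cyp51 at 5.37 ± 0.374, and Sqle at 2.11 ± 0.411 and Lss at 1.88 ± 0.315 were lowest. In that order, only the steps from Insig1 to Idi1 and from Cyp51 to Sqle separated the ranges of neighbouring genes, so Fdps and Hmgcs1 did not differ beyond their spread, nor did Sqle and Lss. The median gene tested had a mean of 17.0 TPM, which puts the abundant trio near the middle of the expressed genes and Sqle and Lss at percentiles 12.9 and 11.2. TPM is scaled by transcript length, and these comparisons between genes rely on that scaling. Fdft1 is less certain in its tier. Its read coverage was 3.40 to 5.84, against 12.3 to 18.0 for Idi1 and 10.1 to 16.0 for Cyp51 at a similar TPM. The reason was not tested.

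Depth in reads is unknown because the tables hold no counts, so no counting error is attached to a value. Mean read coverage along these genes ran from 3.03 for Lss to 66.7 for Hmgcs1. Coverage per unit of FPKM, which rises with depth, was 5.28 to 6.32 with PBS, 6.25 to 6.47 with HEK-EV and 6.58 to 6.84 with MSC-EV. It is the most common ratio, met within 1% by 35.9% to 36.7% of genes above 1 FPKM. All MSC-EV samples lay above all others, so a fit with depth as a covariate cannot fully separate depth from treatment. Transcripts of pancreatic acinar cells stood out in 4 samples, HEK-EV replicates 1 and 2 and MSC-EV replicates 1 and 3, where the median of 12 acinar genes was 2.33, 70.5, 9.75 and 195 TPM, and was 0 in the other 5. The 8 markers of CD11b+ myeloid cells were detected in all samples, at a summed 20800 to 26900 TPM. Lyz2 alone made up 13300 to 18700 TPM of this. Estimates were below 0 for all 8 between MSC-EV and PBS and for 7 of the 8 between MSC-EV and HEK-EV. Called lower with MSC-EV (limma, adjusted p under 0.05) were 2 against PBS and 3 against HEK-EV. Of all genes tested, 5.11% and 5.91% were called. Itgam, which encodes CD11b, differed by -0.53 from PBS (limma adjusted p = 0.0553) and by -0.70 from HEK-EV (adjusted p = 0.0257).

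**Figure D1:**
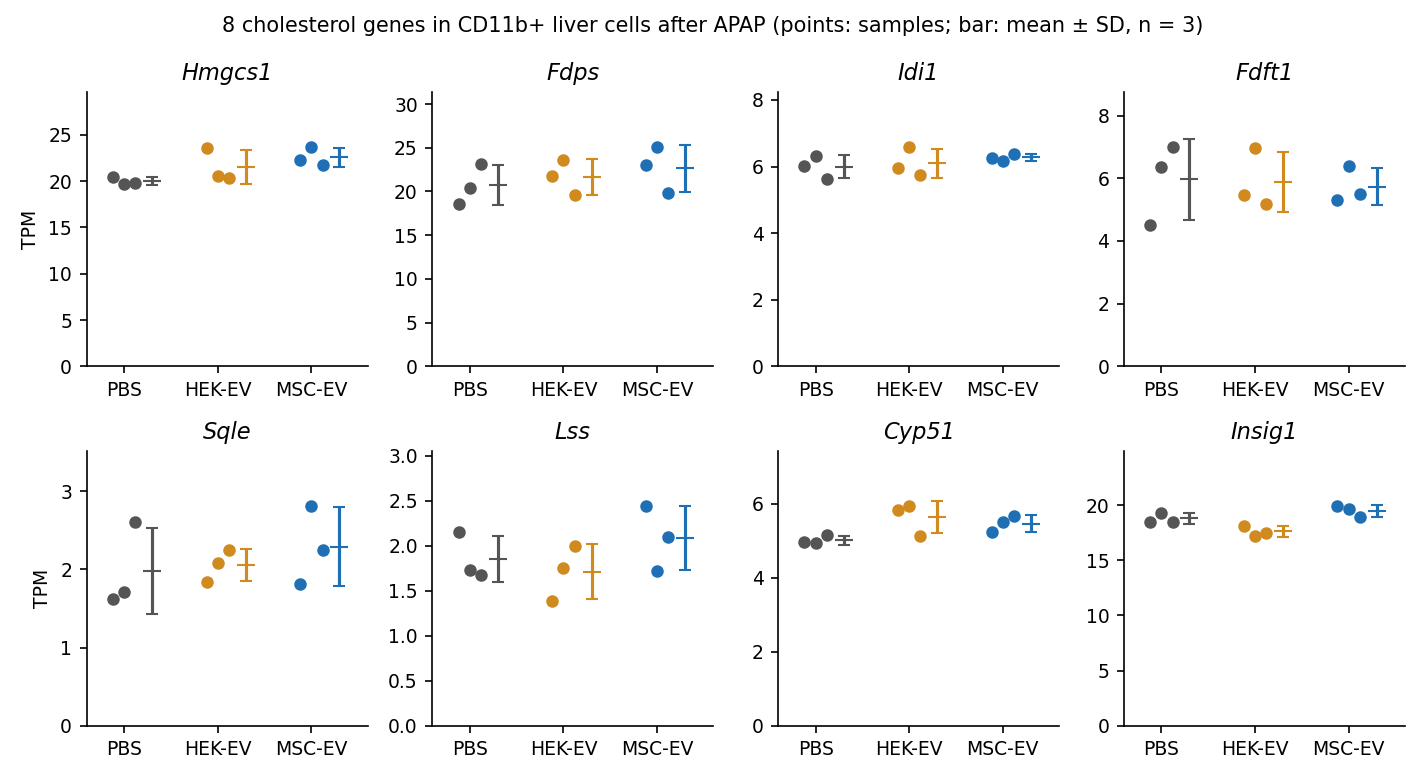
TPM of each of the 8 genes in every sample (points), with the mean ± SD of each group (bars, n = 3), with the treatment along the x axis; each y axis starts at 0. The groups overlap for most genes; the 3 MSC-EV samples lie above the 3 PBS samples for Hmgcs1 and Cyp51, and the 3 HEK-EV samples lie below the other 6 for Insig1.

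Hmgcs1 (gene ID 208715, chr13:119690351-119708260, mm10, plus strand) encodes the cytosolic HMG-CoA synthase, which makes HMG-CoA on the way to mevalonate. It was at 20.5, 19.7 and 19.8 TPM with PBS, 23.6, 20.6 and 20.3 TPM with HEK-EV and 22.3, 23.7 and 21.7 TPM with MSC-EV. All MSC-EV samples lay above all PBS samples, and the HEK-EV samples spanned the gap. The MSC-EV mean differed from PBS by 0.17 on the log2(TPM + 1) scale (SE 0.0742, 1.12-fold), with an adjusted p of 0.216 in limma, which misses the threshold of 0.05 after Benjamini-Hochberg adjustment over 13820 genes. With array quality weights in the limma fit the difference was 0.18 and the adjusted p 0.0396, in a fit that called 4163 of the 13820 genes. HEK-EV differed from PBS by 0.10 (SE 0.0742, limma adjusted p = 0.999).

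Fdps (gene ID 110196, chr3:89093588-89101967, minus strand) encodes farnesyl diphosphate synthase, whose product feeds both squalene and protein prenylation. Its level was 18.6, 20.4 and 23.2 TPM with PBS, 21.8, 23.6 and 19.6 TPM with HEK-EV and 23.0, 25.1 and 19.8 TPM with MSC-EV. The 3 groups overlapped, and the highest PBS sample exceeded 2 of the 3 MSC-EV samples. Idi1 (gene ID 319554, chr13:8885606-8892396, plus strand) encodes isopentenyl diphosphate isomerase, which acts just before Fdps. Its level was 6.02, 6.32 and 5.63 TPM with PBS, 5.96, 6.59 and 5.76 TPM with HEK-EV and 6.27, 6.17 and 6.38 TPM with MSC-EV. Idi1 overlapped between all groups too, and its highest sample was 1.17 times its lowest.

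Fdft1 (gene ID 14137, chr14:63145150-63181687, minus strand) encodes squalene synthase, the first enzyme committed to sterols. Its level was 4.51, 6.37 and 7.0 TPM with PBS, 5.48, 6.98 and 5.18 TPM with HEK-EV and 5.30, 6.40 and 5.49 TPM with MSC-EV. PBS held both the lowest and the highest of the 9 values. Sqle (gene ID 20775, chr15:59315092-59331193, plus strand) encodes squalene epoxidase, a rate-limiting enzyme of the sterol branch. Its samples had 1.62, 1.71 and 2.61 TPM with PBS, 1.84, 2.08 and 2.25 TPM with HEK-EV and 1.81, 2.81 and 2.25 TPM with MSC-EV. Sqle varied most among the 8 genes, with a coefficient of variation of 19.5% over the 9 samples, and its high samples came from both the PBS and the MSC-EV group.

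Lss (gene ID 16987, chr10:76531565-76557139, plus strand) encodes lanosterol synthase, which closes the sterol rings. It was at 2.15, 1.73 and 1.68 TPM with PBS, 1.39, 1.75 and 2.0 TPM with HEK-EV and 2.44, 1.72 and 2.1 TPM with MSC-EV, so all 3 groups overlapped. Cyp51 (gene ID 13121, chr5:4080674-4104697, minus strand) encodes lanosterol demethylase, the next enzyme. It was at 4.95, 4.94 and 5.14 TPM with PBS, 5.83, 5.93 and 5.13 TPM with HEK-EV and 5.22, 5.49 and 5.66 TPM with MSC-EV. Every MSC-EV sample was above every PBS sample for Cyp51, by 0.10 on average on the log2(TPM + 1) scale (SE 0.0886, limma adjusted p = 0.539), and 2 HEK-EV samples were higher still.

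Insig1 (gene ID 231070, chr5:28071412-28078662, plus strand) encodes the sensor that retains SCAP and SREBP2 in the endoplasmic reticulum and is itself induced by SREBP2. Its level was 18.5, 19.3 and 18.5 TPM with PBS, 18.1, 17.2 and 17.5 TPM with HEK-EV and 19.9, 19.6 and 18.9 TPM with MSC-EV. The 3 HEK-EV samples were the lowest of the 9. Insig1 had the smallest spread of the 8 genes, with a coefficient of variation of 4.9%. MSC-EV exceeded HEK-EV by 0.14 on the log2(TPM + 1) scale (SE 0.0607, limma adjusted p = 0.218), and HEK-EV differed from PBS by -0.09 (SE 0.0607, adjusted p = 0.999). Neither difference passed the threshold. Annotated genes overlap Insig1 (Gm35223), Fdps (Gm22935), Fdft1 (Ctsb and Gm51283) and Lss (4930483K19Rik), and the sources used here do not say if strand entered the counting, so the levels of these 4 members are less certain.

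The coefficients of variation of the 8 genes over the 9 samples had a median of 8.76%, against 11.4% for all genes tested and 13.6% for the 6191 genes in the same range of mean TPM, and 5 of the 8 lay below the median of all genes, close to the share of all genes that does so by definition. Their summed level was 80.3 ± 3.33 TPM with PBS, 82.2 ± 3.92 with HEK-EV and 86.5 ± 4.39 with MSC-EV (SD, n = 3). The lowest MSC-EV sum, 82.2 TPM, lay below the highest PBS sum, 83.5 TPM, and below 2 of the HEK-EV sums, so the groups overlapped. These sums rest mostly on Fdps, Hmgcs1 and Insig1.

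MSC-EV against PBS addresses the effect of MSC vesicles given after APAP. None of the 8 members passed the threshold (limma, adjusted p 0.216 to 0.922), where 5.11% of all genes tested did. At an unadjusted p under 0.05 there was 1 member, Hmgcs1, and 3184 of the 13820 genes tested. The estimates were above 0 for 7 of the 8 members and below 0 for Fdft1, from -0.03 to 0.17, with a median of 0.11 against 0.01 for all genes tested. With depth as a covariate Fdps (-0.11) and Sqle (-0.16) turned below 0, and the median was 0.05 against 0.09 for all genes tested. Depth did not overlap between MSC-EV and PBS, so that fit cannot fully tell depth and treatment apart. In that fit Fdft1 was at -0.48 (limma adjusted p = 0.0745) and Lss at 0.30. The median was 0.04 with quantile normalization (all genes 0.01), 0.06 with a pseudocount of 5 (all genes 0.01), 0.06 without PBS replicate 1 (all genes 0.04) and 0.06 without MSC-EV replicate 2 (all genes 0.02). Fdft1 turned above 0 without PBS replicate 2 (0.02), PBS replicate 3 (0.07) or MSC-EV replicate 1 (0.01). The same held without the 4 samples with acinar transcripts (0.11). Fdft1 was at -0.19 without PBS replicate 1 and at -0.10 without MSC-EV replicate 2. The groups did not overlap for 2 members, Hmgcs1 and Cyp51, while they did not overlap for 26% of all genes tested. The 95% intervals of the members lay between 0.764-fold and 1.43-fold on the TPM + 1 scale, which understates changes of low genes. With a pseudocount of 0.1 the interval of Sqle reached 1.67-fold.

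HEK-EV against PBS addresses the same for vesicles from HEK cells. No member passed the threshold, and limma called 0% of the 13820 genes here, with 495 at an unadjusted p under 0.05 and none of the 8 members among them. The estimates were above 0 for 5 members and below 0 for Fdft1, Lss and Insig1, with a median of 0.04 against 0.03 for all genes tested. Insig1 was the 1 member whose groups did not overlap, lower with HEK-EV, against 7.81% of all genes tested. The members' 95% intervals ran from 0.761-fold to 1.34-fold. With a pseudocount of 0.1 they ran from 0.664-fold for Lss to 1.52-fold for Sqle. Median-of-ratios scaling turned the estimate of Idi1 below 0, and the members' median ran from -0.01 without HEK-EV replicate 2 to 0.10 without PBS replicate 3, with -0.01 without PBS replicate 1 and 0.06 without HEK-EV replicate 3.

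MSC-EV against HEK-EV sets the vesicle sources side by side. No member passed (limma, adjusted p 0.218 to 0.940), where 5.91% of all genes tested did, and no member had an unadjusted p under 0.05, where 3217 of the 13820 genes did. Estimates were above 0 for 6 members and below 0 for Cyp51 and Fdft1, with a median of 0.06 against -0.02 for all genes tested. The median was 0.02 without HEK-EV replicate 3, 0.01 without MSC-EV replicate 2, and 0.10 without either HEK-EV replicate 2 or MSC-EV replicate 3. Both Cyp51 and Fdft1 turned above 0 when FPKM replaced TPM, at 0.02 each. Insig1 alone had groups without overlap, against 30.1% of all genes tested, and the members' 95% intervals ran from 0.768-fold to 1.42-fold. Lss reached 1.68-fold at the upper end of its interval with a pseudocount of 0.1.

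**Figure D2:**
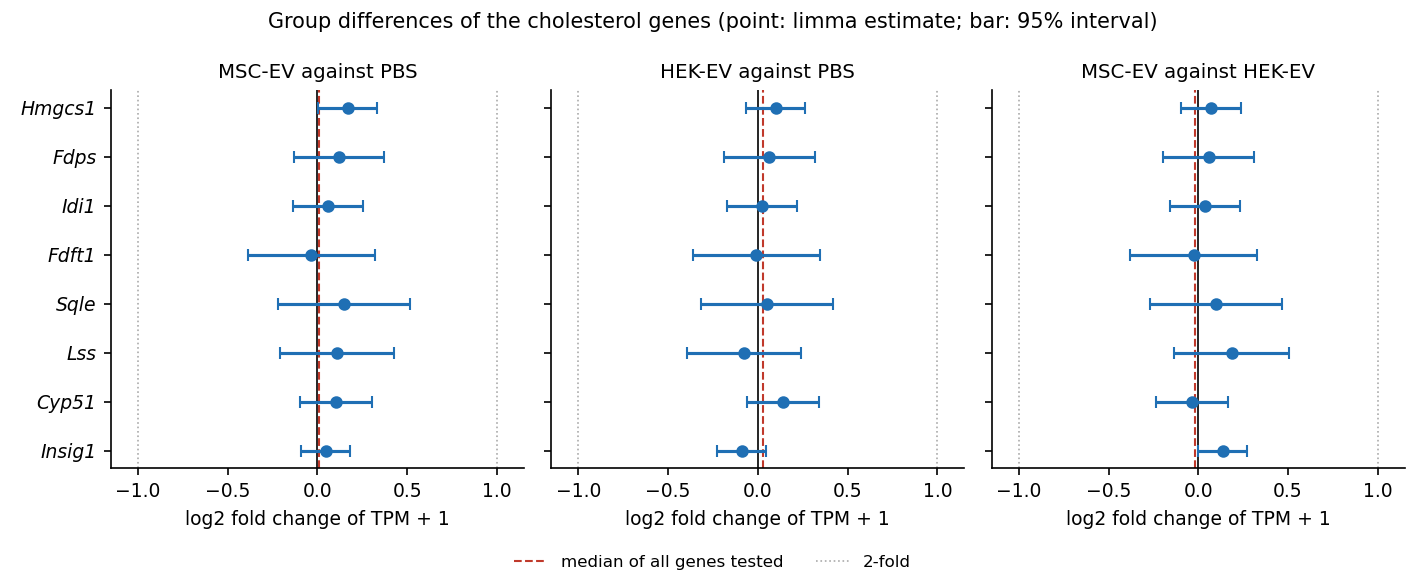
Differences of the 8 genes on the log2(TPM + 1) scale in the 3 comparisons, as limma estimates (points) with 95% intervals (bars). The dashed line is the median of all genes tested and the dotted lines mark a 2-fold difference; all estimates lie between -0.09 and 0.19, and no interval reaches 2-fold.

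The comparisons share samples, so their estimates are not independent. Leaving out the 4 samples with acinar transcripts keeps all 3 PBS samples and 1 sample of each vesicle group, which is assumed to vary like the PBS samples. With so few samples limma called 0 of all genes, so the estimates and not the calls are compared. Without those samples, Hmgcs1 differed by 0.24 between MSC-EV and PBS and by 0.22 between MSC-EV and HEK-EV. Lss turned below 0 in both, at -0.07 and -0.14. Between MSC-EV and PBS, Fdft1 turned above 0 (0.11), Sqle was at 0.37 and Fdps at 0.27. The median of the members between MSC-EV and HEK-EV moved from 0.06 to 0.19. The share of all genes called depended on single samples as well. Of 706 genes called between MSC-EV and PBS, the number fell to 5 without PBS replicate 2, 7 without PBS replicate 3, 25 without MSC-EV replicate 1, 59 without MSC-EV replicate 2, 297 without HEK-EV replicate 2 and 469 without MSC-EV replicate 3, and it grew to 1861 without PBS replicate 1. Of 817 between MSC-EV and HEK-EV, it was 0 without MSC-EV replicate 1 or 2 or HEK-EV replicate 2, 1 without HEK-EV replicate 1, 31 without HEK-EV replicate 3 and 1369 without PBS replicate 1.

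Markers of other cell types the samples could hold were measured beside the 8 genes. Some hepatocyte, monocyte and biliary markers, 1 neutrophil marker and 1 lymphocyte marker were called between groups. Hepatocytes, which make cholesterol in bulk, were represented by 15 marker genes, of which 13 passed the filter, with a summed level of 208 to 284 TPM in PBS, 152 to 307 TPM in HEK-EV and 380 to 535 TPM in MSC-EV samples. All 13 had estimates above 0 between MSC-EV and PBS, 2 of them called, and between MSC-EV and HEK-EV, 4 of them called. Cyp7a1, the rate-limiting enzyme of bile acid synthesis, stayed under 1 TPM in every sample. Monocyte markers summed to 6020 to 12300 TPM in PBS, 7630 to 9640 TPM in HEK-EV and 3770 to 4570 TPM in MSC-EV samples. Of the 8, 5 were called lower with MSC-EV against PBS and 3 against HEK-EV. Of 10 biliary markers 9 were tested, and Krt18, Krt19, Epcam, Sox9 and Cldn7 were higher and called in both MSC-EV comparisons, while Cftr stayed under 1 TPM throughout. Biliary markers summed to 749 to 1720, 908 to 1200 and 1790 to 2380 TPM in the same order, but Spp1, which macrophages also express and which was not called, made up 732 to 2340 TPM of this, and each other biliary marker stayed at 12.3 TPM or below. Endothelial markers summed to 311 to 391, 211 to 452 and 138 to 266 TPM, Kupffer cell markers to 2770 to 3340, 1880 to 3890 and 1550 to 2720 TPM, and neutrophil markers to 3020 to 5570, 4990 to 6870 and 2930 to 3740 TPM. Of the 8 neutrophil markers, 1 was called lower with MSC-EV against HEK-EV and none against PBS. Lymphocyte markers stayed at 15.2 TPM or below in every sample, with Nkg7, 1 of the 2 tested, called higher with MSC-EV against PBS (limma adjusted p = 0.0424) and HEK-EV (adjusted p = 0.0468). Cycling cell markers ranged from 538 to 816 TPM, and like the Kupffer cell and endothelial markers had 0 genes called in any comparison. Between MSC-EV and PBS, estimates were below 0 for all 8 Kupffer cell markers (median -0.671) and 7 of 8 endothelial markers (median -0.775). For cycling cell markers 8 of 10 were above 0 (median 0.139). Against HEK-EV no marker call remained without MSC-EV replicate 1 or 2 or HEK-EV replicate 2, and against PBS 5 and 7 of all genes tested were called without PBS replicate 2 and 3, respectively. The part of these cells in the levels of the 8 genes was not tested.

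The 14 other enzymes of the pathway were all tested. None was called between MSC-EV and PBS (8 estimates above 0, 6 below, median 0.04) or between HEK-EV and PBS, and 1 fell between HEK-EV and MSC-EV. That gene was Lbr, which encodes both a sterol reductase and a protein of the nuclear envelope, at 69.0, 68.8 and 70.2 TPM with HEK-EV and 50.6, 50.4 and 57.1 TPM with MSC-EV (-0.39, SE 0.0813, limma adjusted p = 0.0298). The PBS samples, at 57.3, 65.1 and 70.5 TPM, lay above the MSC-EV samples as well, with a difference of -0.28 that missed the threshold (adjusted p = 0.078). The Lbr call was lost in 10 of 22 alternative fits, 5 of which left out 1 sample, namely any of the HEK-EV samples or MSC-EV replicate 1 or 2.

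**Figure D3:**
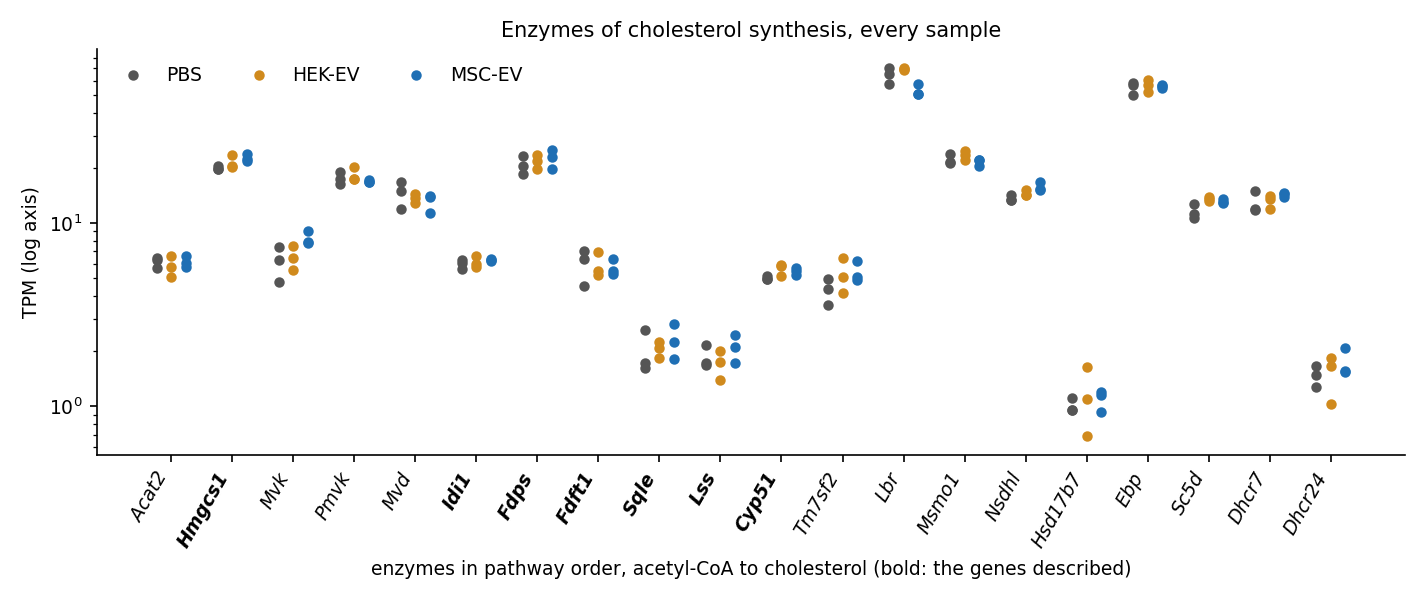
TPM (log axis) of enzymes of cholesterol synthesis in every sample (points, coloured by group), in the order of the pathway from acetyl-CoA to cholesterol, with the 7 enzymes among the 8 genes in bold. Samples of one gene lie close together compared with the differences between genes; the MSC-EV samples lie below the other 6 for Lbr and above them for Mvk and Nsdhl.

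Neither SREBP gene was called. Srebf2, which encodes SREBP2, was at 31.6, 33.8 and 30.9 TPM with PBS, 31.2, 35.5 and 32.6 TPM with HEK-EV and 25.8, 27.1 and 28.5 TPM with MSC-EV. Its MSC-EV samples were below the other 6, with differences of -0.23 from PBS (SE 0.0705, limma adjusted p = 0.0855) and -0.28 from HEK-EV (adjusted p = 0.0525). Srebf2 passed with array quality weights in both (adjusted p = 0.00498 and 0.0111), and against HEK-EV also with a minimum of 5 TPM (adjusted p = 0.0435) or without PBS replicate 1 (adjusted p = 0.0466). Srebf1, which encodes SREBP1, ranged over 27.3 to 35.8 TPM, Scap over 19.8 to 25.2 TPM and Insig2, the relative of Insig1, over 14.3 to 15.8 TPM, with adjusted p of 0.618 or more in every comparison. Of the 13 genes of sterol sensing and SREBP processing, all tested, none was called against PBS in either vesicle group, and 2 fell between HEK-EV and MSC-EV. They were Erlin1 (-0.34, SE 0.0788, limma adjusted p = 0.0404) and Ube2g2 (-0.29, SE 0.0721, adjusted p = 0.0499), which act in the degradation of proteins of the endoplasmic reticulum, and these calls were lost in 15 and 16 of 22 alternative fits. Leaving out any of the 9 samples but PBS replicate 1 ended the Ube2g2 call, and the same held for Erlin1 except that MSC-EV replicate 3 could also be left out.

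Of 18 genes of uptake and intracellular transport, 16 were tested, and between PBS and MSC-EV Scarb1 fell and Npc1 rose. Scarb1, a receptor for HDL and modified lipoproteins, fell from 181, 222 and 193 TPM with PBS and 189, 191 and 203 TPM with HEK-EV to 132, 122 and 149 TPM with MSC-EV (-0.56, SE 0.0913, limma adjusted p = 0.0213 against PBS, and -0.53, adjusted p = 0.0216 against HEK-EV). Npc1, which exports cholesterol from lysosomes, rose from 114, 88.3 and 74.1 TPM with PBS to 131, 132 and 132 TPM with MSC-EV (0.53, SE 0.125, limma adjusted p = 0.0441). The HEK-EV samples had 102, 99.2 and 101 TPM of Npc1, and the difference from them missed the threshold (adjusted p = 0.101). The Scarb1 call against PBS was lost without PBS replicate 2 or 3 or MSC-EV replicate 1 or 2, and the Npc1 call without any 1 sample other than PBS replicate 1. Both calls were also lost with only the 6 samples compared and with the acinar split as a term, and that of Npc1 with no filter and with the replicate block. In all, Npc1 lost its call against PBS in 13 of 22 alternative fits and Scarb1 in 7 of 22. Against HEK-EV the Scarb1 call was lost on leaving out any 1 of the HEK-EV samples or MSC-EV replicate 1 or 2.

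Of 13 genes of SREBP1-driven fatty acid synthesis, 10 were tested. Estimates were below 0 for 6 of the 10 against PBS (median -0.04) and for 7 of the 10 against HEK-EV (median -0.21), with Fads2 called higher in both and Acly called lower against HEK-EV. Scd1, the stearoyl-CoA desaturase, was at 33.1, 26.9 and 20.4 TPM with PBS, 20.4, 27.1 and 25.0 TPM with HEK-EV and 14.2, 16.8 and 20.0 TPM with MSC-EV, with differences of -0.61 (limma adjusted p = 0.0791) and -0.49 (adjusted p = 0.141). Fads2, a fatty acid desaturase, rose from 1.74, 1.48 and 1.85 TPM with PBS and 1.79, 1.90 and 2.04 TPM with HEK-EV to 3.23, 4.71 and 3.55 TPM with MSC-EV (0.83, SE 0.135, limma adjusted p = 0.0213, and 0.72, adjusted p = 0.0248). Acly, which makes cytosolic acetyl-CoA for sterols and fatty acids, fell between HEK-EV (120, 120 and 125 TPM) and MSC-EV (100, 98.2 and 110 TPM; -0.24, SE 0.0576, limma adjusted p = 0.0423). Of 9 oxysterol and efflux genes, 8 were tested, and Apoe rose from 4200, 6430 and 5320 TPM with PBS and 7050, 7590 and 6200 TPM with HEK-EV to 12900, 11500 and 11900 TPM with MSC-EV (1.21, SE 0.149, adjusted p = 0.0113, and 0.80, adjusted p = 0.0241). Apoe is made by macrophages and hepatocytes and carries cholesterol out of cells, and the hepatocyte marker sums given above moved in the same direction, with their part not tested. Of 9 genes of the mevalonate branches, all tested, Coq2 of ubiquinone synthesis fell from 35.4, 41.1 and 39.6 TPM with PBS to 31.9, 30.0 and 31.7 TPM with MSC-EV (-0.30, SE 0.0671, limma adjusted p = 0.0387).

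These calls depended on single samples and on the processing. Against PBS, the call of Fads2 was lost without PBS replicate 2 or 3 or MSC-EV replicate 1 or 2, that of Apoe without PBS replicate 3 or MSC-EV replicate 1, and that of Coq2 without any 1 sample other than PBS replicate 1. Against HEK-EV, Fads2 and Apoe lost their calls on leaving out any 1 of the HEK-EV samples or MSC-EV replicate 1 or 2, as did Acly, which also lost it without PBS replicate 2. The calls of Coq2 and Acly were lost in 16 and 15 of 22 alternative fits, among them no filter, FPKM, median-of-ratios scaling, quantile normalization and the replicate block. Apoe lost its call against PBS with quantile normalization and with the acinar split as a term, and against HEK-EV with quantile normalization and with no filter. Fads2 lost its call against PBS with only the 6 samples compared, with the acinar split as a term and with depth as a covariate, and against HEK-EV with no filter. Without the 4 samples with acinar transcripts, where no gene was called, the differences of MSC-EV from PBS were 1.13 for Apoe, 1.09 for Fads2, -0.69 for Scarb1, 0.54 for Npc1 and -0.36 for Coq2.

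**Figure D4:**
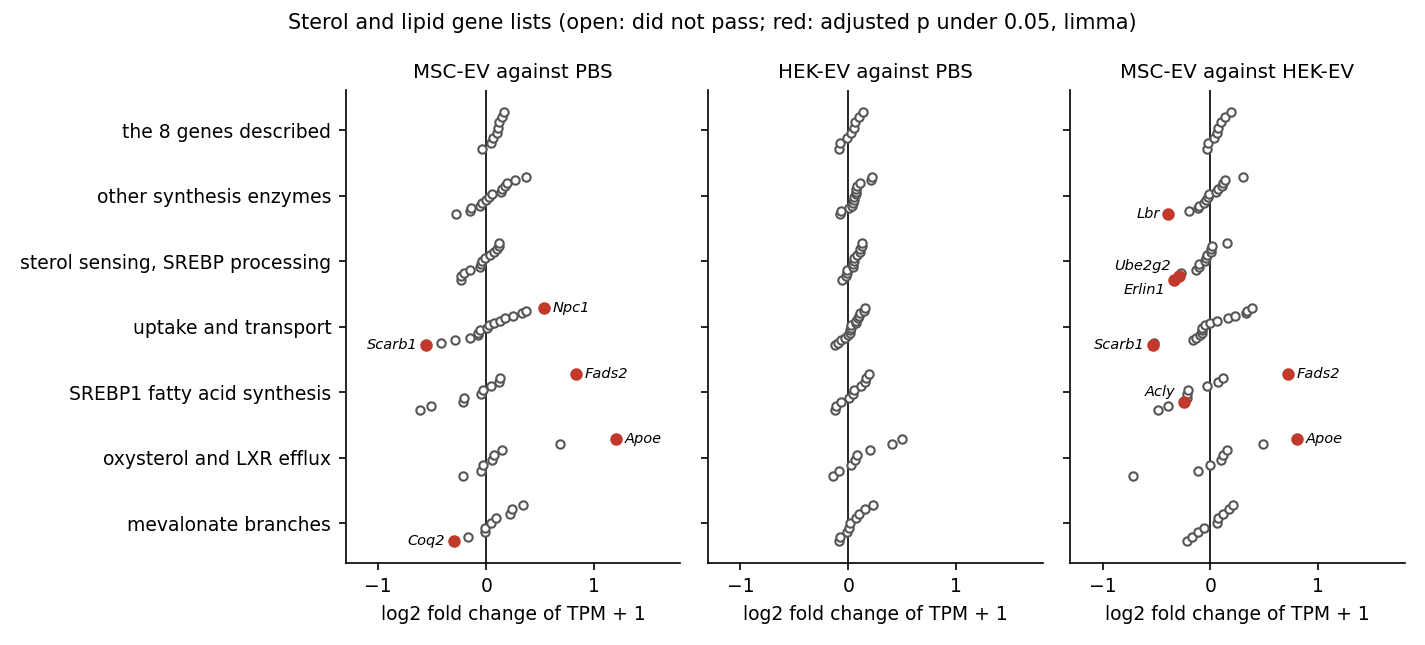
Differences on the log2(TPM + 1) scale of each tested gene (points) in the 8 genes and 6 further lists, in the 3 comparisons; filled red points passed an adjusted p of 0.05 in limma and are named. No point is filled among the 8 genes or between HEK-EV and PBS; between MSC-EV and PBS, Apoe, Fads2 and Scarb1 lie farthest from 0 among the genes called.

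A common profile of the 8 genes was taken as the mean of their standardised log2(TPM + 1), which is 0 on average. It was -0.70, -0.27 and -0.10 with PBS, -0.12, 0.34 and -0.58 with HEK-EV and 0.39, 0.80 and 0.26 with MSC-EV. HEK-EV replicate 2 lay among the MSC-EV samples and the other HEK-EV samples among the PBS samples. Of 10246 other genes with a mean of at least 5 TPM, those whose log2(TPM + 1) followed this mean most closely over the 9 samples were Ndufaf8 (Pearson r 0.925, Spearman rho 0.917), Rnf5 (0.922 and 0.883), Acad11 (0.919 and 0.9), Galt (0.912 and 0.9) and Bcs1l (0.899 and 0.817). These are the highest of many correlations over few samples that share their groups and depth, and they are given as a description.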

How the data were processed

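CD11b+ liver cells of 9 samples were sequenced after TruSeq Stranded mRNA library preparation, per the labels' protocols. The submitters' processing notes name HISAT2 2.1.0, StringTie and mm10, and strand handling is not given in the sources used here. Each deposited table gave coverage, FPKM and TPM per gene, per the file headers. The deposited TPM add up to 1000000 in each sample, and FPKM and the coverage signal are likewise the authors' values. Symbols were matched by gene ID to RefSeq GRCm38.p6 (45679 of 45777 IDs, 99.79%), where 96.4% had equal start and end, and rows of a gene were summed.

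Genes that reached 1 TPM in 3 or more of the 9 samples were tested, 2-sided, on log2(TPM + 1) in R 4.3.3 with limma 3.58.1 (functions lmFit, contrasts.fit and trended eBayes), with all 9 samples in 1 fit, no covariate and Benjamini-Hochberg adjustment over the 13820 genes tested (threshold 0.05). An exact permutation test was not used, because 3 samples against 3 cannot reach p under 0.05. Tables and figures were made in Python 3.11.15 (matplotlib 3.10.9, pandas 2.3.3, scipy 1.17.1, numpy 2.4.6). Motifs were searched on both strands in the 250 bases before the start of each promoter entry. For Lss that window (chr10:76531355-76531604) ran past the gene start given above (76531565).

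The 8 genes, all gene lists, the alternatives and the naming rule were chosen with earlier results of these data known. Named are the 8 genes, each list's genes past the threshold (at most 6), Srebf2, Srebf1, Scap and Insig2, and the 5 genes of most similar pattern. Mvk, Nsdhl, Cyp7a1, Cftr, Scd1, Nkg7, Lyz2, Itgam and the biliary genes fall outside that rule and were named after their values were seen. Some other genes of these lists are counted but not reported here by name. The alternatives were pseudocounts of 0.1 and 5, no filter, a minimum of 5 TPM, FPKM, median-of-ratios scaling, quantile normalization, array quality weights, only the 6 samples compared, a replicate block, the acinar split (median above 0.3 TPM) as a term, depth as a covariate and leaving out each sample. Leaving out the 4 samples with acinar transcripts was added after the data were seen.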

Additional observations from a re-analysis of the deposited data

How the results depend on the processing

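A minimum of 5 TPM and the filter applied to FPKM each leave out Sqle and Lss, which were tested in 20 of the 22 alternative fits. Where members were tested, none was called except Hmgcs1 with array quality weights, which made 1 member called between MSC-EV and PBS (0.18, adjusted p = 0.0396), where that fit called 4163 of 13820 genes. The lowest adjusted p of a member over the alternatives was 0.249 between HEK-EV and PBS and 0.0708 between MSC-EV and HEK-EV. Estimates that were not called changed sign in 7 of 172 values between MSC-EV and PBS, 18 of 172 between HEK-EV and PBS and 13 of 172 between MSC-EV and HEK-EV. The median of the members between MSC-EV and HEK-EV was 0.19 without the 4 samples with acinar transcripts, chosen after seeing the data, against 0.06 with all.

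Genes called between MSC-EV and PBS numbered 706, against 361 with no filter, 77 with only the 6 samples compared, 4163 with array quality weights, 21 with the acinar split as a term, 1457 with depth as a covariate, 0 without the 4 samples with acinar transcripts and 5 to 1861 leaving out 1 sample. Between HEK-EV and PBS they numbered 0, against 4 with no filter and 0 to 2 leaving out 1 sample. Between MSC-EV and HEK-EV they numbered 817, against 387 with no filter, 436 with FPKM, 512 with median-of-ratios scaling, 2081 with array quality weights, 1511 with depth as a covariate, 0 without the 4 samples and 0 to 1369 leaving out 1 sample. Among called genes, the share that was higher came to 36.4% between MSC-EV and PBS (58.7% with FPKM, 47.2% with median-of-ratios scaling) and 25.6% between MSC-EV and HEK-EV (54.8% and 46.3%). The cause of these shifts was not tested.

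With a replicate block, 404 genes were called between MSC-EV and PBS, 0 between HEK-EV and PBS and 448 between MSC-EV and HEK-EV, and no member. Deviations of samples with the same number correlated at -0.499 to 0.058 over 9 pairs, with 0 above 0.1, so no pairing by number was seen. HEK-EV replicate 2 and MSC-EV replicate 3, both with acinar transcripts, correlated at 0.547. Such other differences enter the deviations as well, so this check cannot exclude a pairing.

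For the genes followed in the other sterol and lipid lists, marker lists not included, the alternatives ended 126 calls, added 25, changed the sign of 30 values that were not called and left 806 as they were. Coverage was lowest for Lss, Sqle and Fdft1 (3.03, 3.31 and 3.40 at the lowest), and counting error is unknown without read counts.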
